A study of Mus musculus with 4 samples.

Results

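The transcription factor p53 and 9 of its best known target genes were followed in mouse embryonic stem cells that have or lack B-type lamins, the filament proteins of the nuclear lamina encoded by Lmnb1 and Lmnb2. The 10 genes, Trp53, Mdm2, Cdkn1a, Ccng1, Bbc3, Bax, Fas, Sesn2, Trp53inp1 and Zmat3, were taken by symbol from a table of 37991 genes with raw read counts, and all 10 had a row. The study compared wild-type cells (wt) with cells null for the B-type lamins (dKO). Each genotype had 2 replicates, which the series text calls biological, and all 4 libraries of total RNA carried the strain label ZHBTc4, a mouse embryonic stem cell line in which Oct4 is made from a tetracycline-repressible transgene. Culture conditions and the way the null cells were made were not given in the sources used here. The labels do not say whether a genotype is 1 clone or several, so genotype and clone cannot be told apart. They also do not say that replicates are separate cultures, so p-values measure only the spread between these 4 libraries, which may be technical.

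In this pathway p53 acts as a tetramer that binds a DNA element of paired decamers and raises transcription of genes for cell cycle arrest, apoptosis, DNA repair and metabolism. Its level is set mainly at the protein: Mdm2, itself a p53 target, is the ubiquitin ligase that marks p53 for destruction, so the transcript of Trp53 alone does not show how active the protein is. The transcripts of the targets are the usual readout of p53 activity, and embryonic stem cells are known to hold abundant p53 protein.

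The wt libraries totalled 12899964 (replicate 1) and 14941952 (replicate 2) counts and the dKO libraries 16697970 and 16584014. The targeted genes matched the labels, with Lmnb1 at 667 and 547 CPM (read counts per library size, scaled between libraries by TMM) in wt and 4.24 and 6.02 CPM in dKO libraries, and Lmnb2 at 105 and 117 CPM in wt and 2.52 and 3.28 CPM in dKO libraries. Each of 8 stem cell markers had at least 136 CPM in every library. None passed the adjusted threshold in edgeR without a replicate term, with 4 positive and 4 negative log2 fold changes. Zfp42 (Rex1), a marker of the naive state, was at 666 and 613 CPM in wt and 1449 and 1435 CPM in dKO libraries (1.17, edgeR adjusted p = 0.0886), and Klf4 at 136 and 156 CPM in wt and 193 and 242 CPM in dKO libraries (0.57, edgeR adjusted p = 0.712). Pou5f1 (Oct4), which the transgene can supply in this line, was at 751 to 876 CPM. The summed level of 8 fibroblast markers was 7.27 and 12.4 CPM in wt and 4.85 and 5.91 CPM in dKO libraries; Postn had no count in wt replicate 1 or dKO replicate 1, and Lum had none in either dKO library. Of 10 markers of differentiated cells 9 had a row, and they summed to 37.8 and 39.5 CPM in wt and 43.7 and 41.2 CPM in dKO libraries.

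The best matches to the element that p53 reads are shown for the members with at most 3 mismatches, and for Mdm2, whose match held a full decamer, so that the closeness of each can be seen. RefSeq promoters (GRCm38.p6, 250 bases before to 50 after an annotated start) matched 8 of the 10 members with 11 entries; Trp53inp1 and Zmat3 were not matched. Each was searched for the 20-base p53 consensus element, 2 adjoining consensus decamers with no spacer, which reads the same on both strands. The best match in each promoter is in capitals, with 20 flanking bases on each side, written 5′ to 3′ along the gene.
Cdkn1a, chr17:29090908-29090967, plus strand: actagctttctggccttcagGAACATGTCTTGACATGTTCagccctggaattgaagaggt
Ccng1, chr11:40755442-40755501, minus strand: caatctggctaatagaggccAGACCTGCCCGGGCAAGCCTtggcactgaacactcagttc
Bbc3, chr7:16309466-16309525, plus strand: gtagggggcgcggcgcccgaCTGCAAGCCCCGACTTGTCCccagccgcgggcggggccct
Bax, chr7:45467070-45467129, minus strand: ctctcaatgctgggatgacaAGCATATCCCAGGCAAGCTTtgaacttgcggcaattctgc
Trp53, chr11:69580264-69580323, plus strand: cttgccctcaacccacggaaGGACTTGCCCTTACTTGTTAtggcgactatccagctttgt
Mdm2, chr10:117710905-117710964, minus strand: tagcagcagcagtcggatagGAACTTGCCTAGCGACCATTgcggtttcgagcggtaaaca

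The matches of Cdkn1a and Ccng1 departed from the consensus at 1 of 20 bases, which 0.0883% of all 32851 promoters searched did or bettered. The Cdkn1a match starts 51 bases before the upstream of its 2 annotated starts, and that of Ccng1 195 bases before its start. Bbc3, Bax and Trp53 had 3 mismatches each, a level reached by 6.29% of promoters, with matches that start 97, 211 and 75 bases before a start. Mdm2 had a full decamer joined to a poor one, 5 mismatches in all, which 76.6% of promoters reached; a full decamer stood in 8.36% of promoters. Fas and Sesn2 also had 5 mismatches at best. In all, 5 of 8 members had a promoter with at most 3 mismatches, against 9 of 42 other p53 targets with a promoter and 7.2% of 27025 genes. A match describes the letters of the window and is not a measured binding site, and elements in introns or farther upstream lie outside it.

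None of the 9 members that could be tested passed the test between genotypes. With edgeR's quasi-likelihood test over 14027 genes, 0 of 9 passed an adjusted p of 0.05, as against 0.0855% of all genes (12 genes). At an unadjusted p under 0.05 in edgeR there was 1 member, Bbc3, lower in dKO, against 5.57% of all genes (2.71% lower and 2.87% higher). DESeq2 called 0 of the 9, against 96 of 14027 genes. In DESeq2 0 of the 9 had an unadjusted p under 0.05, with Bbc3 just above it at 0.0516. The share of all genes under 0.05 in DESeq2 was not computed. Log2 fold changes (dKO minus wt) lay between -0.42 for Bbc3 and 0.09 for Sesn2, with a median of -0.07; it was -0.0019 over all tested genes. The outermost bounds of the 9 members' 95% intervals were 1.73-fold lower in dKO cells (Bbc3) and 1.67-fold higher (Cdkn1a). For any 1 gene, an exact two-sided permutation test of 2 libraries against 2 has a smallest p of 0.333.

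**Figure D1:**
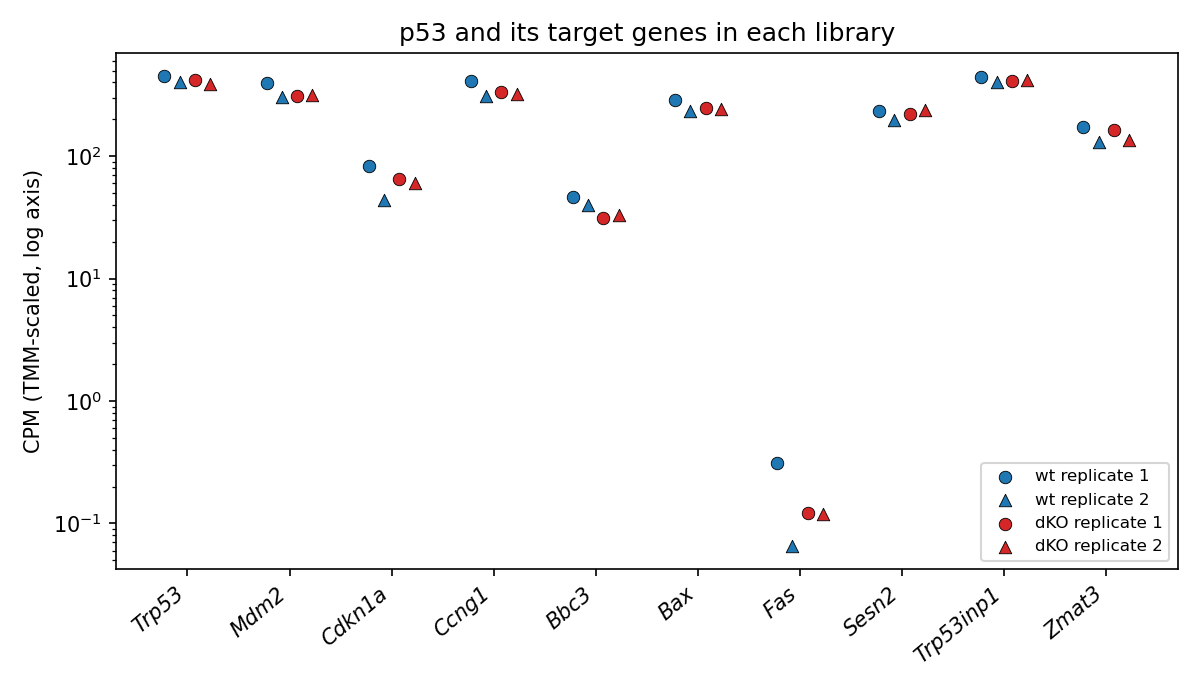
CPM of the 10 genes (log axis) in each library, with wt in blue and dKO in red and replicates 1 and 2 as circles and triangles. Red and blue points interleave for all genes but Bbc3, whose dKO points (31.2 and 33.3 CPM) sit below its wt points (39.7 and 46.7 CPM), and Fas lies under 1 CPM throughout.

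Trp53 itself (ENSMUSG00000059552, chromosome 11, 69393861 to 69405375 in the table's own build) differed little between the libraries. It had 448 and 403 CPM in wt replicates 1 and 2 and 416 and 391 CPM in dKO replicates 1 and 2, from 5730 to 6783 counts. The dKO values straddled the lower wt value, so the groups overlapped. Its log2 fold change was -0.07 (SE 0.12, 95% interval -0.38 to 0.23, edgeR adjusted p = 0.989). The pseudogene Trp53-ps, 97.7% identical to a Trp53 transcript over 353 bases, had 0 counts in every library.

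Mdm2 (chromosome 10, 117125944 to 117147814), the ligase of the feedback loop, had 394 and 304 CPM in wt and 313 and 317 CPM in dKO libraries. The dKO libraries lay close together and between the wt libraries, near the lower of them. Its log2 fold change was -0.15 (SE 0.16, 95% interval -0.53 to 0.24, edgeR adjusted p = 0.981). Ccng1 (chromosome 11, 40562054 to 40568813) encodes cyclin G1, which recruits a phosphatase to Mdm2 and so feeds back on p53 as well. It had 410.03 and 312 CPM in wt and 335 and 322 CPM in dKO libraries, so that, as for Mdm2, both dKO libraries lay between the wt libraries. The log2 fold change of Ccng1 was -0.14 (SE 0.16, edgeR adjusted p = 0.981).

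Cdkn1a (chromosome 17, 29227924 to 29237667) encodes p21, the inhibitor of cyclin-dependent kinases through which p53 halts the cycle. Its level was 82.4 and 43.5 CPM in wt and 65.4 and 60.2 CPM in dKO libraries. The wt replicates were the highest and the lowest of the 4, with both dKO libraries between them. The genotype means were 63.0 ± 27.5 and 62.8 ± 3.67 CPM (SD, n = 2 each). The log2 fold change was thus -0.0021 (SE 0.30, 95% interval -0.74 to 0.74, edgeR adjusted p = 0.9997). The sign of this value turned on the wt library used: it was 0.52 without wt replicate 1 (unadjusted p = 0.0222, adjusted p = 0.595 in edgeR) and -0.39 without wt replicate 2 (unadjusted p = 0.0578, edgeR adjusted p = 0.9998).

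Zmat3 (chromosome 3, 32233718 to 32264600), an RNA-binding zinc finger protein that regulates splicing downstream of p53, had 173 and 130.3 CPM in wt and 163 and 135 CPM in dKO libraries. The groups overlapped fully, and the log2 fold change was -0.02 (SE 0.18, edgeR adjusted p = 0.995). Sesn2 (chromosome 4, 132047947 to 132066416) encodes a sestrin, a leucine sensor that restrains mTORC1. It had 233 and 198 CPM in wt and 220.4 and 240.04 CPM in dKO libraries, and was the only member with a positive log2 fold change (0.09, SE 0.13, edgeR adjusted p = 0.987). The predicted gene Gm12981, which overlaps the Sesn2 row, had at most 11 counts in a library. Trp53inp1 (chromosome 4, 11083578 to 11101526), a nuclear cofactor that promotes p53 phosphorylation and autophagy, was the steadiest of the 10, at 444 and 402 CPM in wt and 411 and 420.3 CPM in dKO libraries. It spanned 1.11-fold over the 4 libraries, and its log2 fold change was -0.03 (SE 0.12, edgeR adjusted p = 0.995).

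Among the 9 tested members, Bbc3 (chromosome 7, 16894965 to 16903554) was the only one whose genotypes did not overlap. Bbc3 encodes PUMA, a BH3-only protein that unleashes Bax by binding its inhibitors. It had 598 and 604 counts (46.7 and 39.7 CPM) in wt and 508 and 559 counts (31.2 and 33.3 CPM) in dKO libraries, so both dKO libraries were below both wt libraries. The log2 fold change was -0.42 (SE 0.15, 95% interval -0.79 to -0.05, unadjusted p = 0.031), and it did not pass over all genes (edgeR adjusted p = 0.827). Such separation was not rare: 33.6% of all tested genes had groups that did not overlap, 16.4% with dKO lower, against 1 of 9 members. Over the 4 fits with 1 library left out the value ran from -0.53 to -0.30, and its sign held in each.

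Bax (chromosome 7, 52717065 to 52722268), the pore-forming effector of the mitochondrial pathway, had 290 and 233 CPM in wt and 249 and 245 CPM in dKO libraries. As for Mdm2, the dKO libraries lay between the wt libraries, and the log2 fold change was -0.08 (SE 0.14, edgeR adjusted p = 0.99). Fas (chromosome 19, 34365149 to 34402260), the death receptor at the cell surface, was nearly silent. Its counts were 4 and 1 in wt and 2 in each dKO library, which did not pass the low-count filter. The largest of these, in wt replicate 1, corresponds to 0.313 CPM with an exact Poisson 95% interval of 0.0852 to 0.801, which covers counting error only. No genotype difference in Fas was detectable at this depth.

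**Figure D2:**
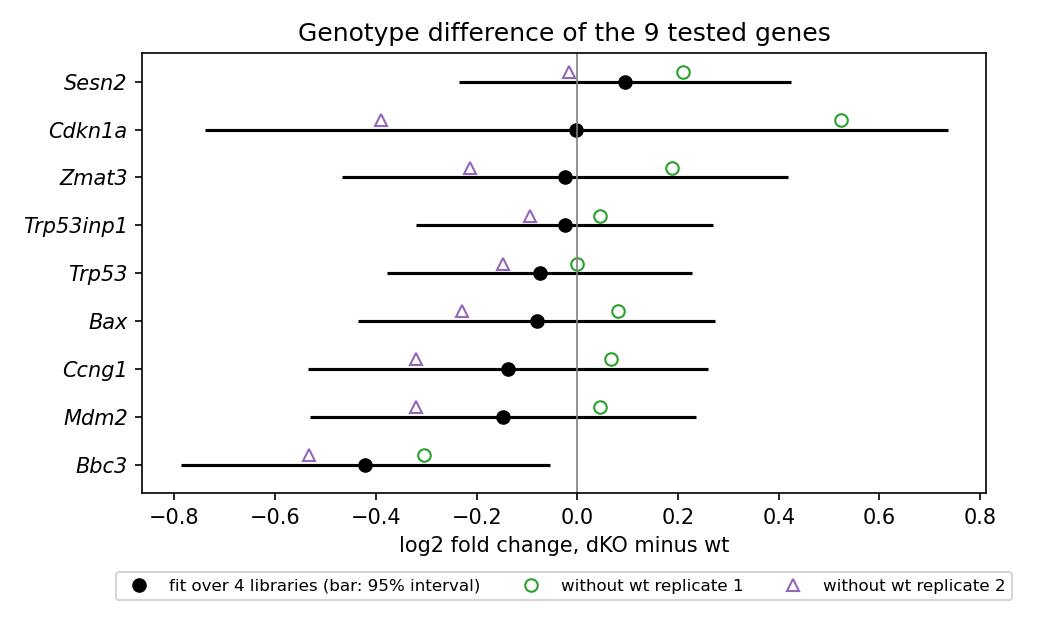
Log2 fold change (dKO minus wt) of the 9 tested genes, with black points and 95% intervals from the fit over 4 libraries, and open circles and triangles for the fits without wt replicate 1 and without wt replicate 2. Each interval spans 0 except that of Bbc3 (-0.79 to -0.05). Every circle lies to the right of its triangle, which follows from wt replicate 2 being below wt replicate 1.

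Levels can be compared between genes only per length, here as CPM per kilobase of merged exons (GENCODE M21). The annotation used for the counts was not given and may differ from it, so the order of genes with near levels is approximate. On that scale Bax was highest, with 166 ± 25.6 in wt and 157 ± 1.56 in dKO cells (SD, n = 2 each). Trp53 (105 ± 7.93 and 99.8 ± 4.40) and Ccng1 (103 ± 19.7 and 93.4 ± 2.66) came next; their ranges over the 4 libraries overlapped, while in dKO cells alone both Trp53 values (103 and 96.7) were above both Ccng1 values (95.3 and 91.6). Mdm2, Trp53inp1 and Sesn2 followed at 57.1 to 77.4 in single libraries, and their ranges overlapped. Bbc3 (20.4 ± 2.34 and 15.2 ± 0.72), Cdkn1a (17.7 ± 7.74 and 17.7 ± 1.03) and Zmat3 (13.2 ± 2.62 and 13.0 ± 1.68) formed a low group whose neighbours overlapped, and Fas was last at 0.09 ± 0.08 and 0.06 ± 0.0012. In exons, Bax shares 192 bases with the annotated gene Gm45808 on its own strand and Cdkn1a 273 bases with AC167363.2 on the opposite strand. Neither has a row in the table, and the strand setting of the counting was not given in the sources used here.

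The wt replicates differed in the same direction for all tested members. In wt replicate 2 all 9 tested members were below wt replicate 1, by 0.15 (Trp53inp1) to 0.92 (Cdkn1a) on the log2 scale, and for 8 of the 9 this difference was larger than the genotype difference, as it was for 64.2% of all tested genes; Bbc3 was the exception. Over all tested genes 49.97% were below. The wt 1 library held the highest value of the 4 for 8 members (23.9% of all genes) and the wt 2 library the lowest for 7 (27.7% of all genes). The dKO replicates lay closer together for all 9 members, with differences of -0.26 (Zmat3) to 0.12 (Sesn2) and 5 of 9 lower in replicate 2 (50.5% of all genes). Over all tested genes the median absolute difference was 0.253 in wt and 0.229 in dKO. The share of all genes with the closer pair in dKO was not computed. For Cdkn1a the wt 2 library had 0.528 times the level of wt 1 (95% counting interval 0.479 to 0.583), while the dKO replicates had a ratio of 0.921 (0.844 to 1.004). That wt difference of Cdkn1a was larger than those of 97.7% of the 7893 genes with an average log2 CPM of at least 4; for Ccng1 and Mdm2 the shares were 81.1% and 79.0%.

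Since all 9 tested members were lower in wt replicate 2, leaving out either wt library had to move them as a group. Their median log2 fold change was 0.07 without wt replicate 1, with 7 of 9 positive, and -0.23 without wt replicate 2, with 0 of 9 positive. Over all genes tested in those fits the medians were 0.0026 and 0.0094. Among other library values, wt replicate 1 had the lowest total count and wt replicate 2 the highest fibroblast marker sum. The mitochondrial share of counts was higher in replicate 2 of both genotypes (3.24% and 3.81% in wt, 3.08% and 3.84% in dKO). Their part in the result was not tested.

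**Figure D3:**
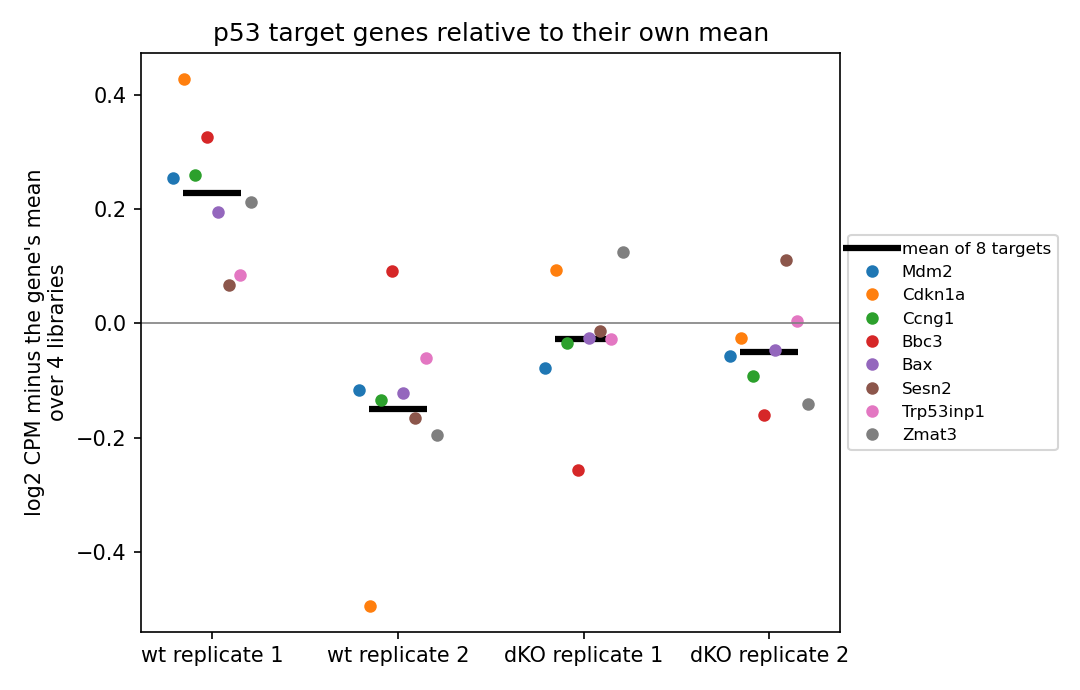
Log2 CPM of each of the 8 tested p53 targets minus its own mean over the 4 libraries, with a black bar for the mean of the 8. All 8 points of wt replicate 1 lie above 0 and 7 of 8 of wt replicate 2 lie below, and the bars of the dKO libraries lie between those of the wt libraries.

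The 3 genes outside all lists whose levels over the 4 libraries ran closest to the mean profile of the 8 tested targets were Tfap4, Prdx4 and Zfp64, by Euclidean distance of centred log2 CPM among 7538 protein-coding genes (0.025, 0.032 and 0.035). Tfap4, a helix-loop-helix transcription factor, had 44.6 and 35.04 CPM in wt and 38.1 and 37.0 CPM in dKO libraries. Prdx4, a peroxiredoxin of the endoplasmic reticulum, had 64.5 and 50.03 CPM in wt and 53.4 and 52.1 CPM in dKO libraries. Zfp64, a zinc finger protein, had 63.9 and 49.8 CPM in wt and 55.4 and 53.4 CPM in dKO libraries. Each has wt 1 highest and wt 2 lowest, as the mean profile does, which follows from how these genes were chosen. A profile over 4 libraries is shared by many genes and is given as a description.

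No gene of the wider p53 network passed the test either, but only 0.0855% of all tested genes did. A count of 0 in each of these lists, here and below, is near that share. Of 30 regulators of p53, 29 were tested (Trp63 was not), and 0 passed, with 16 positive and 13 negative log2 fold changes and a median of 0.07. Npm1, the nucleolar protein that can bind Arf and Mdm2, had the highest CPM of the list, 3477 and 2707 CPM in wt and 3213 and 2307 CPM in dKO libraries (-0.16). Hipk2, a kinase that phosphorylates p53 to favour apoptosis, had the largest positive value, from 13.0 and 16.4 CPM in wt to 21.0 and 23.7 CPM in dKO libraries (0.60, SE 0.20, edgeR adjusted p = 0.779). Wrap53, which lies head to head with Trp53, had the largest negative one, with 38.4 and 44.4 CPM in wt and 31.5 and 34.1 CPM in dKO libraries (-0.34, edgeR adjusted p = 0.907). Groups did not overlap for 12 of the 29, 7 higher and 5 lower in dKO, or 41.4% beside the 33.6% of all genes.

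Beyond the members, 51 further p53 targets were listed by function, of which 50 had a row and 49 were tested. None passed in edgeR, 1 had an unadjusted p under 0.05 (5.57% of all genes), and 33 of 49 had negative log2 fold changes (50.3% of all genes), with a median of -0.06. In these targets wt replicate 2 was below wt replicate 1 in 34 of 49 (49.97% of all genes), and wt replicate 1 was the highest library for 25 (23.9% of all genes). By function, wt replicate 2 was the lower for 9 of 13 arrest, 13 of 15 apoptosis, 4 of 8 repair and 8 of 13 metabolism targets.

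For cell cycle arrest 4 values were positive and 9 negative (median -0.06). Gtse1, a microtubule protein that restrains p53, had the highest CPM of the list, 350.2 and 270 CPM in wt and 310.5 and 297 CPM in dKO libraries (-0.03). Notch1 had the largest positive value among genes with an average log2 CPM of at least 2, with 61.1 and 63.4 CPM in wt and 70.5 and 76.5 CPM in dKO libraries (0.24, edgeR adjusted p = 0.923). Sfn, the 14-3-3 sigma protein of the G2 arrest, differed far more between replicates than between genotypes. It had 84.7 and 31.5 CPM in wt and 59.8 and 22.8 CPM in dKO libraries, with replicate 2 the lower in both genotypes (-0.49, edgeR adjusted p = 0.984).

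For apoptosis 5 values were positive and 10 negative (median -0.08). Aen, an exonuclease induced by p53, had the highest CPM of the list, 288 and 236 CPM in wt and 244 and 232 CPM in dKO libraries (-0.14). Bid, the BH3-only protein cleaved by caspase 8, had 35.02 and 28.6 CPM in wt and 45.2 and 34.2 CPM in dKO libraries (0.32, edgeR adjusted p = 0.949). Steap3, a metalloreductase, varied with the replicate in the direction opposite to Sfn, with 16.4 and 45.2 CPM in wt and 13.1 and 24.5 CPM in dKO libraries (-0.71, edgeR adjusted p = 0.969).

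For DNA repair 3 values were positive and 5 negative (median -0.08). Pcna, the sliding clamp, had 277 and 299.6 CPM in wt and 292 and 318 CPM in dKO libraries (0.08). Rrm2b, the p53-inducible subunit of ribonucleotide reductase, had a log2 fold change of 0.28, and Ercc5, a nuclease of excision repair, one of -0.20. Of the metabolic targets 4 were positive and 9 negative (median -0.02); Sco2 had 0 counts in every library and was not tested. Gpx1, a glutathione peroxidase, had 207 and 214 CPM in wt and 166 and 251 CPM in dKO libraries (-0.02), and the mitochondrial glutaminase Gls2 had a log2 fold change of 0.17. Dcxr, a sugar reductase, was the target with an unadjusted p under 0.05, at 17.8 and 13.7 CPM in wt and 10.4 and 10.3 CPM in dKO libraries (-0.60, SE 0.22, unadjusted p = 0.0351, edgeR adjusted p = 0.844).

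**Figure D4:**
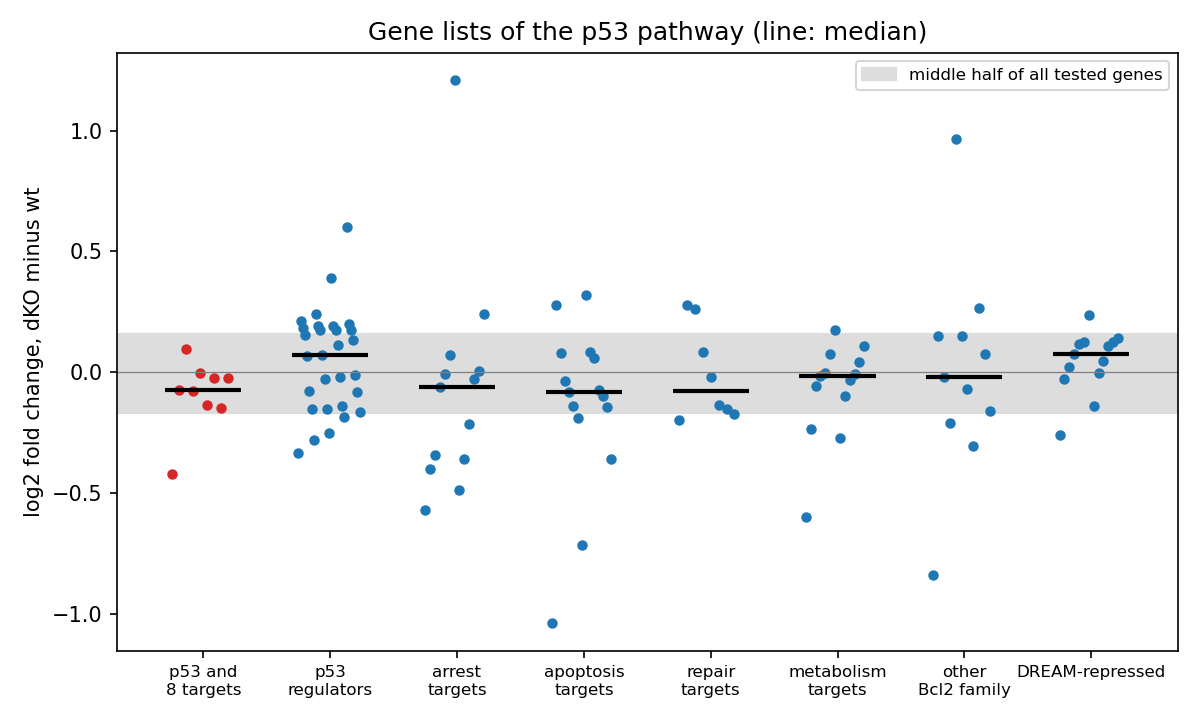
Log2 fold change (dKO minus wt) of every tested gene of 8 lists, with p53 and its 8 tested targets in red, a black line for each list's median and a grey band for the middle 50% of all tested genes. The 8 medians lie between -0.08 and 0.08, and the band is for single genes, so it does not test them.

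Bax and Bbc3 act within the Bcl2 family, and its 11 other listed members were all tested, with 0 passed, 5 positive and 6 negative values and a median of -0.02. Mcl1, an inhibitor of apoptosis, had the highest CPM of the list, 786 and 621 CPM in wt and 838 and 725 CPM in dKO libraries (0.15). Hrk, a BH3-only protein like Bbc3, had the largest positive value, with 19.2 and 15.1 CPM in wt and 26.03 and 40.9 CPM in dKO libraries. Both dKO libraries were above both wt libraries, as for 17.2% of all tested genes. Its log2 fold change was 0.97 (SE 0.27, edgeR unadjusted p = 0.0117), but the gene did not pass over all genes (edgeR adjusted p = 0.713). Bcl2l1, which encodes the inhibitor Bcl-xL, had 68.3 and 86.2 CPM in wt and 57.5 and 67.5 CPM in dKO libraries (-0.31, edgeR adjusted p = 0.942).

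Through p21 and the DREAM repressor complex p53 also lowers a set of cell cycle genes, of which 13 were listed and tested. None passed in edgeR (0.0855% of all genes) and 0 had an unadjusted p under 0.05 (5.57% of all genes). There were 9 positive (49.7% of all genes) and 4 negative values, with a median of 0.08. Groups did not overlap for 46.2% of the 13, 5 higher and 1 lower in dKO, beside 33.6% of all genes. Here wt replicate 2 was below wt replicate 1 for 9 of 13 (49.97% of all genes). The median log2 difference was -0.03, against -0.32 for the members and -0.16 for the other p53 targets. In dKO, replicate 2 was also below replicate 1 for 9 of 13, against 5 of 9 members and 22 of 49 other p53 targets (50.5% of all genes). Mybl2, a transcription factor of dividing cells, had 1234 and 1228 CPM in wt and 1262 and 1410.07 CPM in dKO libraries (0.12). Kif23, a kinesin of cytokinesis, had the largest positive value, with 129 and 133 CPM in wt and 162 and 146 CPM in dKO libraries (0.23, edgeR adjusted p = 0.918). Ccnb2, a mitotic cyclin, had the largest negative value, with 154 and 176 CPM in wt and 135 and 140.3 CPM in dKO libraries (-0.26, edgeR adjusted p = 0.907).

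**Figure D5:**
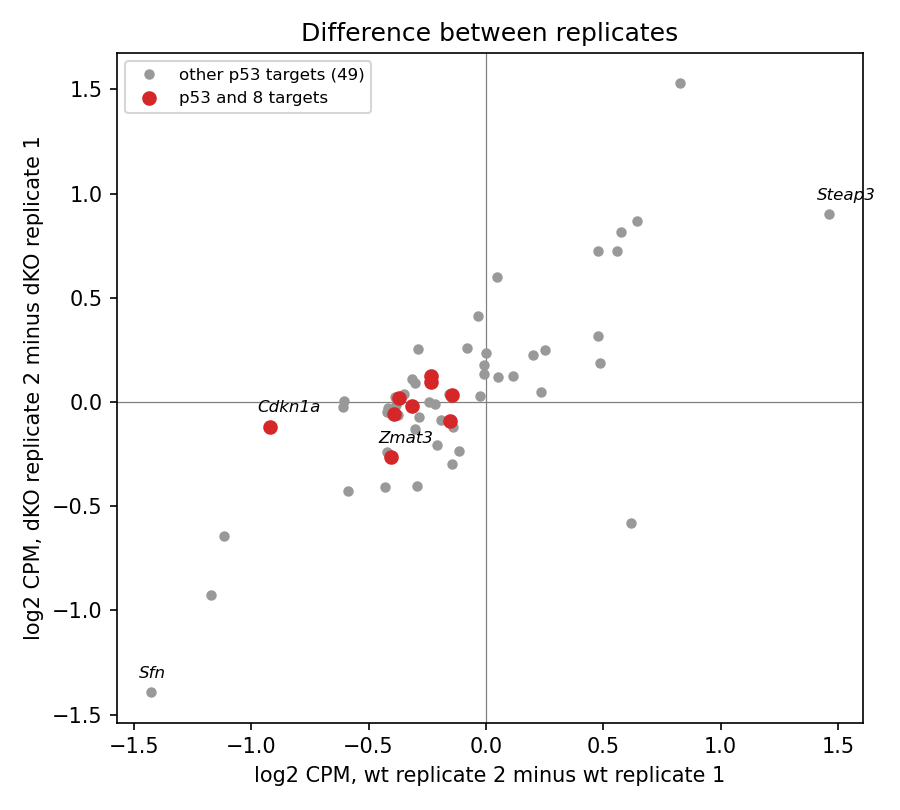
Difference in log2 CPM between replicates 2 and 1 in wt (x axis) and in dKO (y axis) for p53 and its 8 tested targets (red) and 49 other p53 targets (grey). All red points lie left of 0 (-0.92 to -0.15) and between -0.26 and 0.12 on the y axis, where 5 of 9 are also below 0. Sfn and Steap3 differ by more, each in the same direction in both genotypes.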

How the data were processed

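Per the labels' protocols, RNA of 2 wt and 2 dKO samples was taken up in Trizol and sequenced from TruSeq libraries. The authors deposited a single table of raw read counts by Ensembl gene. The submitters' processing notes list TopHat2 2.0.6, TopHat and HTSeq without their roles; build, annotation and strand setting were not given in the sources used here. Gene positions are those of the table, and 32919 of its 37991 genes were matched to a symbol by ID.

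After filtering with filterByExpr and TMM scaling, 14027 genes were tested with edgeR 4.0.16 under R 4.3.3 (robust quasi-likelihood F test, genotype only, Benjamini-Hochberg over these genes, threshold 0.05). SEs come from the F statistic. Library totals of 12899964 to 16697970 counts set the counting error. The alternatives were a replicate block, each library left out, DESeq2 1.42.0, limma-voom (limma 3.58.1), size factors of DESeq2, library totals without further scaling, unfiltered genes, and a minimum CPM of 1 in every library of a genotype. Copies were sought with blastn 2.17.0 (at least 94% identity over 300 bases).

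Members and lists were chosen with earlier results of these data known. Named genes were all members, the tested gene of highest average CPM of each other list, those with the largest positive and negative log2 fold change at an average log2 CPM of at least 2, any past the threshold, and 3 genes of like profile (average log2 CPM of at least 4). Lists were described by counts and medians, with no test.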

Additional observations from a re-analysis of the deposited data

How the results depend on the processing

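No member passed the adjusted threshold in any fit without a replicate term. Over 35 named genes and all alternatives run, 348 of 385 values kept their direction and their side of the threshold, 31 changed sign without a call, and 6 gained a call, all with the replicate block. Beside the 12 genes past the threshold there were 80 when low-count genes were kept, 96 by DESeq2, 5 by limma-voom, 1299 with a replicate block (9.26% of genes) and 18 to 27 with 1 library left out. With the block, the replicate number entered as a term, Bbc3 was the only member called (-0.42, adjusted p = 0.0208); the other gained calls were Hipk2 (0.61, 0.00538), Sfn (-0.49, 0.0035), Steap3 (-0.64, 0.00413), Dcxr (-0.59, 0.0216) and Hrk (0.95, 0.0195). Of the 49 other tested p53 targets the block called 4, all lower in dKO, beside 9.26% of all genes. They include Phlda3, which is outside the 35 named genes (-0.35, edgeR adjusted p = 0.0405). The fibroblast marker Pdgfrb, with 1 to 56 counts in a library, was also called (-3.26, edgeR adjusted p = 7.97e-05). Outside the 35 named genes, 3 of the 8 stem cell markers were called with the block as well, all higher in dKO. They were Zfp42 (1.17, edgeR adjusted p = 4.03e-09), Klf4 (0.57, 0.000157) and Esrrb (0.32, 0.0262). Same-numbered libraries deviated together over 7893 genes (r = 0.75), which is a hint in the values only, since no label says that a number marks a shared batch.

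Cdkn1a, at -0.0021, was 0.0064 when low-count genes were kept, 0.0571 with the replicate block and 0.0808 by limma-voom. With 1 library left out the ranges of genes that changed sign were -0.39 to 0.52 for Cdkn1a, -0.32 to 0.0449 for Mdm2, -0.32 to 0.0662 for Ccng1, -0.23 to 0.0813 for Bax, -0.0158 to 0.21 for Sesn2, -0.0947 to 0.0445 for Trp53inp1 and -0.21 to 0.19 for Zmat3. They were -0.42 to 0.0598 for Npm1, -0.20 to 0.17 for Gtse1, -1.34 to 0.38 for Sfn, -0.27 to 0.0058 for Aen, -1.27 to 0.20 for Steap3, -0.12 to 0.60 for Rrm2b, -0.46 to 0.12 for Ercc5, -0.34 to 0.26 for Gpx1, -0.32 to 0.55 for Gls2, -0.0074 to 0.33 for Mcl1, -0.25 to 0.10 for Tfap4, -0.29 to 0.0705 for Prdx4 and -0.23 to 0.12 for Zfp64. Why the libraries of a genotype differ was not tested. With 1 library left out, list medians that changed sign ran from -0.23 to 0.0662 for the members, -0.20 to 0.0934 for arrest, -0.16 to 0.0348 for apoptosis, -0.0551 to 0.0498 for repair and -0.16 to 0.0794 for metabolism targets, and -0.0415 to 0.0456 for the other Bcl2 family; those of regulators and of genes repressed through DREAM stayed positive. The arrest median was -0.14 with the stricter CPM filter, and that of the other Bcl2 family was -0.0366 with total counts only.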

Other observations

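Of the 49 other tested p53 targets, 21 were lower in replicate 2 than in replicate 1 in both genotypes and 14 were higher in both; of all 14027 tested genes, 5102 were lower and 5039 higher in both. Perp, Gdf15, Sesn1 and Gls2 are given as examples, chosen after their values were seen. Perp, a membrane protein of desmosomes, had 39.3 and 17.5 CPM in wt and 35.2 and 18.6 CPM in dKO libraries. Gdf15, a secreted stress cytokine, had 3.52 and 6.25 CPM in wt and 1.96 and 5.67 CPM in dKO libraries. Sesn1, a sestrin like Sesn2, had 13.1 and 19.6 CPM in wt and 11.9 and 20.9 CPM in dKO libraries, and Gls2 had 11.3 and 17.7 CPM in wt and 11.6 and 21.2 CPM in dKO libraries. For each of these genes the genotypes overlapped.

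Mdm4, the partner of Mdm2 that masks p53 without degrading it, had 170.1 and 216 CPM in wt and 218 and 238 CPM in dKO libraries. Both dKO libraries were thus above both wt libraries, as for 17.2% of all tested genes (log2 fold change 0.24, SE 0.15, edgeR adjusted p = 0.953). A copy on the X chromosome, Mdm4-ps, 94.1% identical to a Mdm4 transcript over 4184 aligned bases, had 172 and 169 CPM in wt and 166 and 189 CPM in dKO libraries (0.06, edgeR adjusted p = 0.99). Reads can be divided or dropped between such copies, so both levels are uncertain.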
